A study of Mus musculus with 10 samples.

Results

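The transcriptome of splenic natural killer (NK) cells after JAK inhibition is described here from 5 of the 10 RNA sequencing libraries of a study of NK cells and ILC1. The 5 were chosen by their labels as splenic cells sorted as CD3- and NKp46+ from BALB/C mice, 3 of them from mice given vehicle and 2 from mice given tofacitinib, and the other 5 were liver ILC1 of the same 2 treatments. Tofacitinib was given by mouth at 30 mg/kg, 2 times per day for 1 week, and the vehicle mice received methyl cellulose without drug. The labels name no transgene or deletion, and give neither age nor sex. Each library came from pooled mice, so the p-values measure the spread between a few pools and not between single animals. Of the 24981 genes listed, the 9472 with a group mean of log2(RPKM + 0.1) above 1 in either group were tested. RPKM divides the reads of a gene by its exon length and by the number of mapped reads. Called, rose and fell mean below that the adjusted p was under 0.05 in limma, after Benjamini-Hochberg adjustment over these 9472 genes. Log2 changes are on the log2(RPKM + 0.1) scale, which understates the change of low genes, and are given ± SE.

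NK cells are lymphocytes that kill infected or transformed cells without prior sensitisation. They are kept alive, dividing and armed by cytokines, IL-15 above all, whose receptors carry no kinase of their own and pass the signal through Janus kinases (JAKs) to STAT transcription factors. Tofacitinib occupies the ATP site of JAK1 and JAK3 and, less tightly, of the other JAKs, so that signals of IL-2, IL-15, IL-7, IL-12 and the interferons are dampened. Cytokine signals also run into the PI3K and MAP kinase pathways. The former holds FOXO transcription factors out of the nucleus, and the latter switches on early response genes such as Fos and Egr1.

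The NK libraries held 29199973 to 79258362 alignments, with the fewest in vehicle replicate 3 and the most in tofacitinib replicate 1. The 8 markers of NK cells summed to an RPKM of 6877 to 8074 in vehicle and 5533 to 5852 in tofacitinib. Most of that sum was Gzma, at 4937, 5562 and 4696 against 4124 and 3786 RPKM, so it says little of the other markers. Klra8 was low, at 1.05, 0.856 and 0.252 against 0.24 and 0.603 RPKM. Of the 7 markers tested, 6 had both tofacitinib libraries below vehicle (85.7%, against 23.9% of all genes). Of 11 T cell markers, 7, among them Cd3e, Cd4 and Cd8a, stayed under an RPKM of 1. Lat, at 44.5, 46.9 and 43.1 against 37.8 and 35.75 RPKM, Cd3g, at 13.3, 10.9 and 11.1 against 10.2 and 14.5, and Cd3d, at 5.09, 3.77 and 3.86 against 4.21 and 4.61, did not. Dendritic cell markers, led by Cd74, H2-Aa and H2-Ab1, summed to 212 to 294 in vehicle and 232 to 313 in tofacitinib, and 6 of the 11 stayed under 1. B cell markers summed to 94.4 to 142 and 118 to 156, so the groups overlapped. Macrophage and monocyte markers, to which Ccr2 contributed most, summed to 125 to 152 and 81.6 to 82.8. Erythroid markers summed to 109 to 366 and 80.7 to 117, with the highest value in vehicle replicate 1. In bulk libraries fewer cells of a type and less RNA per cell cannot be told apart.

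After tofacitinib, 170 genes rose (1.79% of those tested) and 286 fell (3.02%). Among the largest rises were those of the inducible chaperone gene Hspa1b, the AP-1 genes Jun and Fos and the chemokine receptor Cxcr4. The largest falls were those of F2rl2, Socs1 and Bspry among genes other than Bcl2, Bcl2l1 and Gzmb. At the threshold of the study (a fold below 0.6 or above its inverse, with an unadjusted p under 0.05) 53 genes were higher (0.56%) and 104 lower (1.1%). Both tofacitinib libraries lay above all 3 vehicle libraries for 1916 genes (20.2%) and below them for 2261 (23.9%), and the median log2 change over all genes tested was -0.01. Leaving out a tofacitinib library leaves 1 in that group, which the fit takes to vary as the vehicle libraries do, so a call that ends there does not show that it rested on the library left out. Of the genes that rose and of those that fell, 9 and 28 were still called without tofacitinib replicate 1, the deepest library, and 22 and 64 without tofacitinib replicate 2. Leaving out a vehicle library kept 55 and 122 (replicate 1), 166 and 280 (replicate 2) or 111 and 232 (replicate 3). The 9 rising genes that held without tofacitinib replicate 1, namely Cxcr4, Il7r, Pik3ip1, Tsc22d3, Cited4, Dmrta1, Jun, Hspa1b and Hsph1, were called whichever library was left out. Every other call of a rise ended without that library. Without moderation of the variance across genes no gene was called (1591 at an unadjusted p under 0.05, against 2209 in limma), and without the filter on low values 3 genes rose and 12 fell of 16263.

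**Figure D1:**
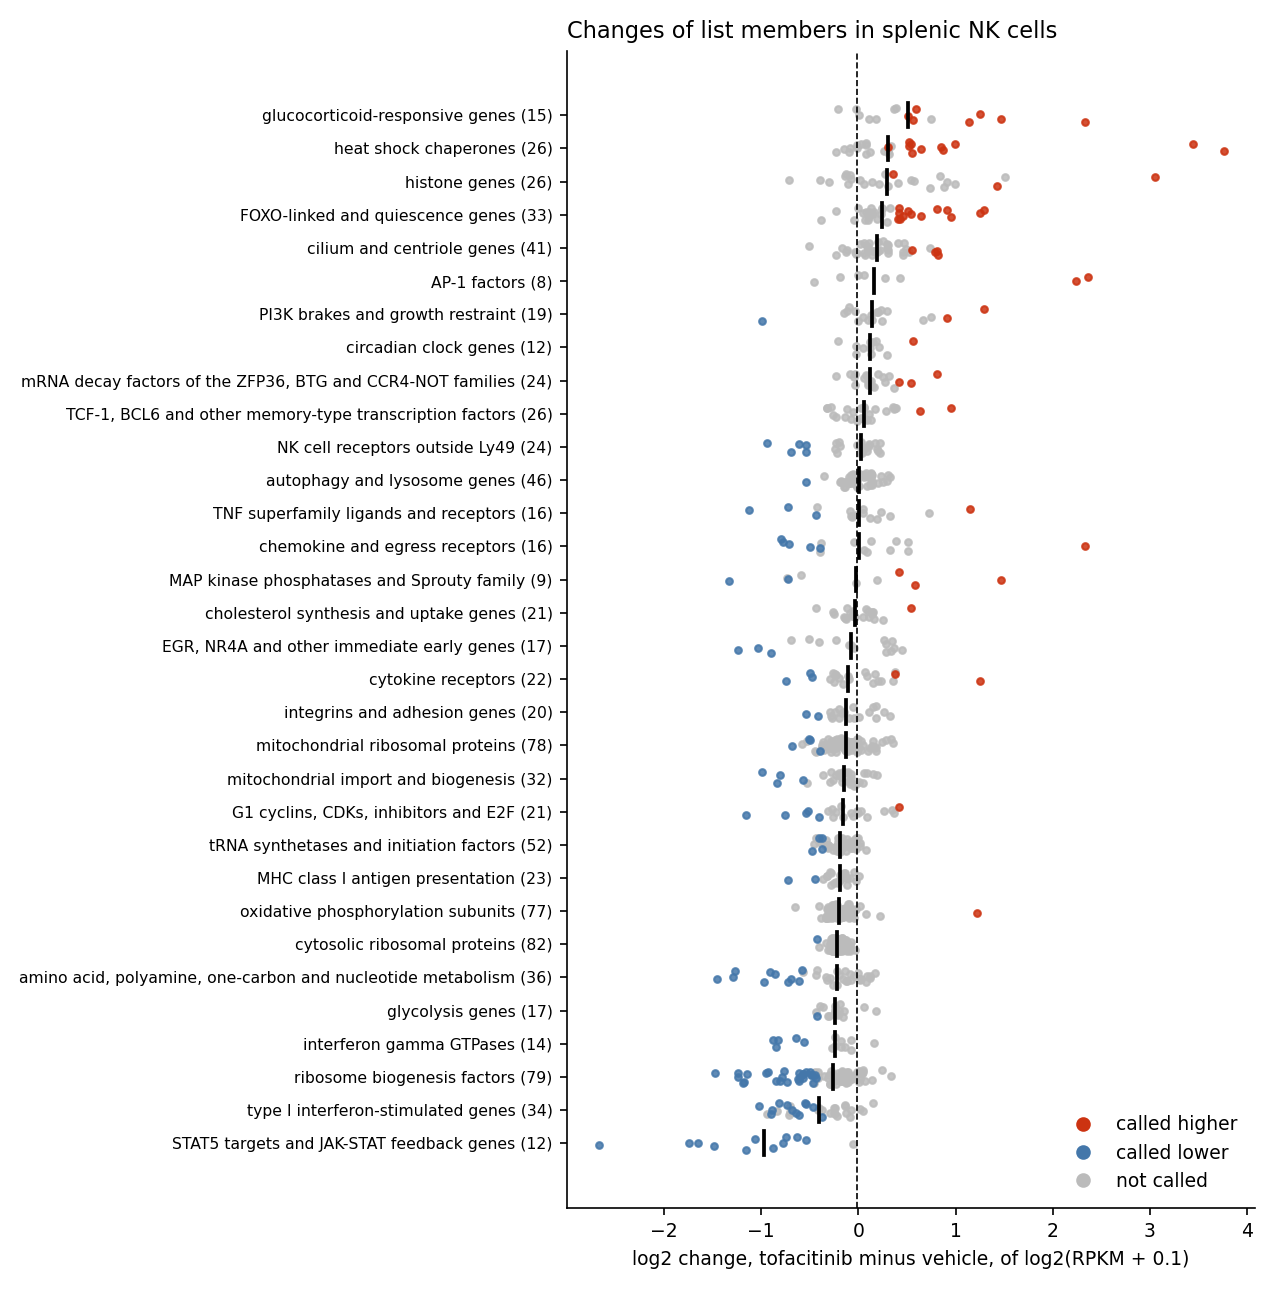
Log2 change (tofacitinib minus vehicle, of log2(RPKM + 0.1)) of each tested member of 32 gene lists in splenic NK cells; points are genes, bars are list medians and the dashed line is the median of all 9472 genes. Medians ran from 0.51 for glucocorticoid-responsive genes to -0.97 for STAT5 targets, while the median of all genes was -0.01.

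The chemokine receptor Cxcr4 holds lymphocytes in niches that make CXCL12, such as bone marrow. Its RPKM was 27, 45.9 and 55.4 in the vehicle libraries and 208 and 205 in the tofacitinib libraries. Both tofacitinib values were far above the highest vehicle value, and the fold was 5.03 (log2 change 2.33 ± 0.24, adjusted p = 0.00244). Il7r, the receptor chain for IL-7, rose from 22.2, 19.1 and 19.1 to 43.5 and 53.1 RPKM, without overlap (log2 change 1.25 ± 0.11, adjusted p = 0.00117). Il7r is also a marker of ILC1. The 12 ILC1 markers summed to 267 to 310.2 in vehicle and 324 to 368 in tofacitinib. Without Il7r, a sum added after the data were seen, the groups overlapped at 248 to 291 and 280.2 to 315. Most of that sum was Ltb, at 234.7, 249.2 and 207.9 against 236.5 and 262.5 RPKM, so its overlap says little of the other markers. Of the 10 ILC1 markers tested, Il7r among them, 5 had both tofacitinib libraries above vehicle (50%, against 20.2% of all genes). None had both below (against 23.9% of all genes). A positive change was seen in 8 of the 10, and only Il7r was called.

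Pik3ip1, a membrane protein that binds and inhibits PI3K, measured 10.7, 10.1 and 8.99 RPKM in vehicle and 24.1 and 24.6 in tofacitinib (log2 change 1.29 ± 0.09, adjusted p = 0.000723). The libraries of each group lay close together and the groups were well apart. Tsc22d3, which encodes the glucocorticoid-induced leucine zipper GILZ, measured 46.3, 60.7 and 67.1 RPKM in vehicle and 119.7 and 133 in tofacitinib (log2 change 1.14 ± 0.14, adjusted p = 0.00512). Cited4, a partner of the CBP and p300 coactivators, measured 7.49, 9.52 and 7.34 RPKM in vehicle and 20.2 and 19.5 in tofacitinib (log2 change 1.29 ± 0.12, adjusted p = 0.00165). Dmrta1, a DM-domain transcription factor gene, measured 2.99, 2.26 and 3.14 RPKM in vehicle and 8.64 and 8.11 in tofacitinib (log2 change 1.56 ± 0.15, adjusted p = 0.00193). For all 3 of these genes the lowest tofacitinib value was above the highest vehicle value, which the rule for the 20 largest rises required.

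**Figure D2:**
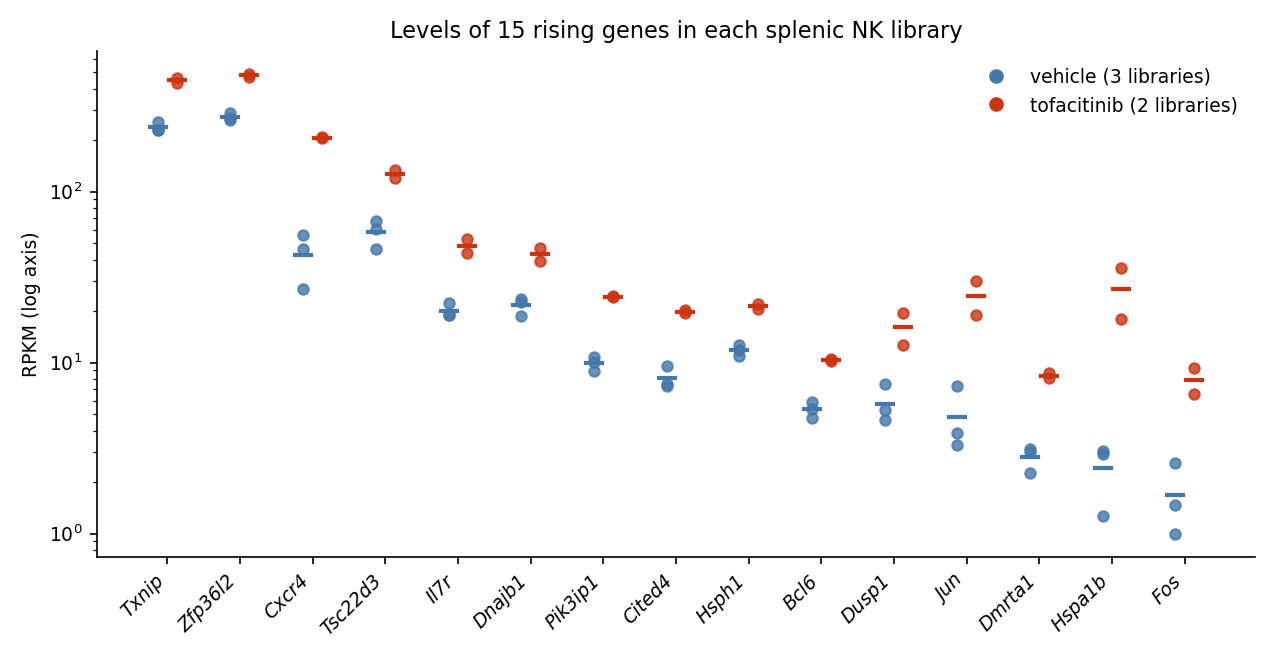
RPKM (log axis) of 15 genes that rose in splenic NK cells, with a point for each vehicle and each tofacitinib library. No tofacitinib point lies within the vehicle range, as in Fos at 2.6, 0.996 and 1.47 against 9.29 and 6.54 RPKM and in Txnip at 228, 254 and 230.4 against 432 and 463 RPKM.

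Among early response genes, which many stimuli switch on within minutes, 2 AP-1 factors rose and 3 EGR and NR4A genes fell. Jun, a subunit of the AP-1 transcription factor, measured 7.34, 3.86 and 3.31 RPKM in vehicle and 29.9 and 19 in tofacitinib (log2 change 2.36 ± 0.31, adjusted p = 0.0055). Fos, its usual partner, measured 2.6, 0.996 and 1.47 RPKM in vehicle and 9.29 and 6.54 in tofacitinib (log2 change 2.24 ± 0.33, adjusted p = 0.00987). Neither gene had overlapping groups, which the rule for the 20 largest rises required. In both the higher tofacitinib value was that of replicate 1. The call of Fos ended without tofacitinib replicate 1 (adjusted p 0.101). These were the 2 called among 8 tested AP-1 factors (25% higher, against 1.79% of all genes). Junb was at 107, 104 and 87.4 against 153 and 117 RPKM (log2 change 0.43, adjusted p = 0.0972), Jund overlapped between the groups at 91.2, 109 and 82.7 against 100.2 and 94.5 RPKM, and Fosb was too low to be tested. Of the 8 factors, 4 had both tofacitinib libraries above vehicle (50%, against 20.2% of all genes). Mafg alone had both below (12.5%, against 23.9%).

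The EGR and NR4A genes, which many of the same stimuli induce, moved the other way where they were called. Egr1, a zinc finger factor downstream of ERK, fell from 6.44, 4.78 and 4.8 to 2.51 and 2.57 RPKM (log2 change -1.03 ± 0.15, adjusted p = 0.0101). Egr3, its relative, fell from 3.82, 3.64 and 3.34 to 1.12 and 1.91 RPKM (log2 change -1.24 ± 0.21, adjusted p = 0.0182). Nr4a1, an orphan nuclear receptor that reports antigen receptor signalling in lymphocytes, fell from 8.55, 9.19 and 7.76 to 4.14 and 4.92 RPKM (log2 change -0.90 ± 0.12, adjusted p = 0.0055). No vehicle and tofacitinib values overlapped for these 3 genes, the only ones called of 17 tested members of this list (17.6%, against 3.02% lower of all genes). Of the 17, 7 had both tofacitinib libraries below vehicle (41.2%, against 23.9% of all genes) and 7 had both above (41.2%, against 20.2%). The median was -0.07 (0.11 over the members with a group mean above 3). A difference between the 2 families was not tested. The calls of Egr1 (adjusted p 0.0952), Egr3 (0.133) and Nr4a1 (0.0852) ended without tofacitinib replicate 1, that of Egr1 (0.0598) without tofacitinib replicate 2 and that of Egr3 (0.0606) without vehicle replicate 1. The median of the 17 was -0.07, against 0.16 for the 8 AP-1 factors.

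Of 9 tested brakes on MAP kinases, 3 rose (33.3%, against 1.79% of all genes) and 2 fell (22.2%, against 3.02%). Dusp1, a phosphatase that switches off p38 and JNK, rose from 7.45, 5.26 and 4.59 to 19.6 and 12.7 RPKM (log2 change 1.47 ± 0.22, adjusted p = 0.0102). Dusp2, a nuclear phosphatase of lymphocytes, rose from 147, 114 and 118 to 181 and 196 RPKM (log2 change 0.59 ± 0.12, adjusted p = 0.03), and Dusp7, a cytoplasmic one, rose from 10.03, 9.8 and 10.9 to 12.7 and 14.8 (log2 change 0.42 ± 0.10, adjusted p = 0.0483). These groups were apart, though close for the latter pair. Dusp5, a nuclear phosphatase for ERK, fell from 61.3, 67.6 and 58.3 to 36.6 and 38.6 RPKM (log2 change -0.73 ± 0.09, adjusted p = 0.00427). Spred2, an inhibitor of the Ras to ERK step, fell from 5.25, 4.37 and 5.27 to 1.97 and 1.84 RPKM (log2 change -1.33 ± 0.14, adjusted p = 0.00244). Neither overlapped, and Spred2 was called whichever library was left out. The calls of Dusp1, Dusp2, Dusp7 and Dusp5 (adjusted p 0.0852 to 0.202) ended without tofacitinib replicate 1, those of Dusp2 (0.244) and Dusp7 (0.379) without tofacitinib replicate 2, that of Dusp7 (0.123) without vehicle replicate 1 and that of Dusp2 (0.0537) without vehicle replicate 3.

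**Figure D3:**
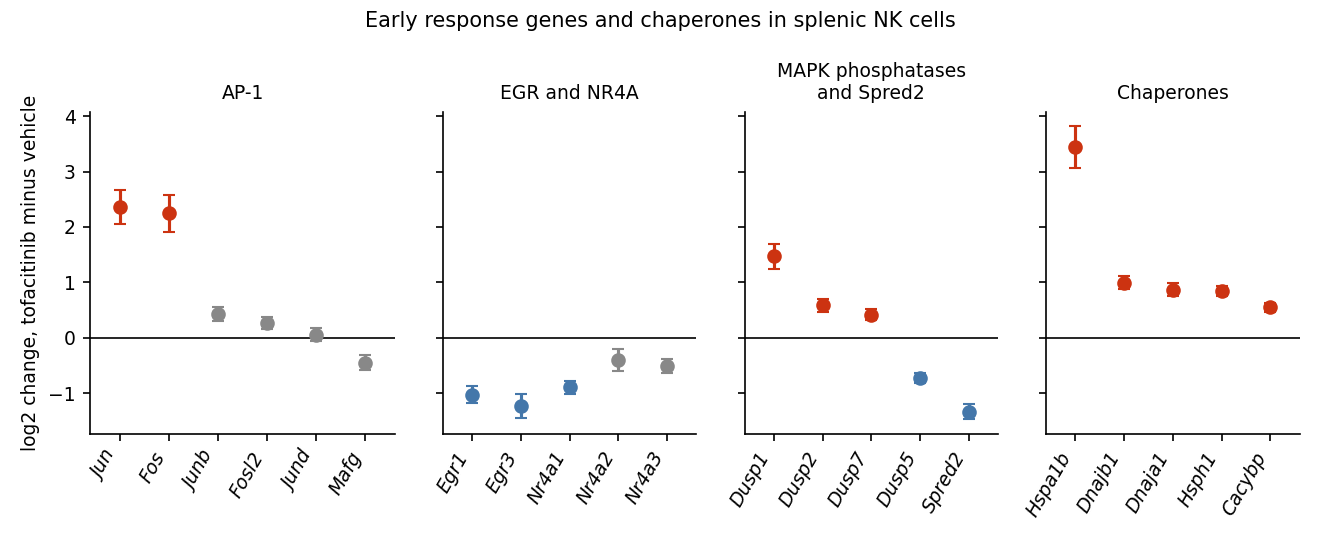
Log2 change ± SE (limma; 3 vehicle and 2 tofacitinib libraries) of AP-1 factors, EGR and NR4A genes, MAP kinase brakes and chaperones in splenic NK cells. Jun at 2.36 and Fos at 2.24 stand opposite Egr1 at -1.03 and Nr4a1 at -0.90, and Dusp1 at 1.47 opposite Dusp5 at -0.73.

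Chaperone genes of the heat shock family rose in 11 of 26 tested (42.3%, against 1.79% of all genes) and fell in none. The median log2 change was 0.31. These proteins refold other proteins, and the inducible ones are switched on by the heat shock factor HSF1. Hspa1b, an inducible HSP70 gene, measured 1.26, 3.06 and 2.93 RPKM in vehicle and 36 and 17.9 in tofacitinib, a 10.8-fold rise (log2 change 3.44 ± 0.38, adjusted p = 0.00308). The groups were well apart, and the higher tofacitinib value was again that of replicate 1. Its neighbour Hspa1a has a near-identical sequence, so the split of reads between the pair is uncertain, and since vehicle replicate 1 was at practically 0 no fold is given. Hsph1, an HSP110 that recharges HSP70, measured 11, 12.6 and 11.9 RPKM in vehicle and 22.1 and 20.7 in tofacitinib (log2 change 0.85 ± 0.09, adjusted p = 0.00244). J proteins, which pass clients to HSP70, rose as well. Dnajb1 rose from 18.6, 23.6 and 22.7 to 46.7 and 39.5 RPKM (log2 change 0.99 ± 0.12, adjusted p = 0.00426) and Dnaja1 from 37.9, 47.2 and 48.3 to 83.7 and 78.1 (log2 change 0.87 ± 0.11, adjusted p = 0.00548). Cacybp, a partner of HSP90 and of the ubiquitin system, rose from 20.02, 20.7 and 22.1 to 31.7 and 29.6 RPKM (log2 change 0.55 ± 0.08, adjusted p = 0.00982). No groups overlapped in any of these. Abundant members chosen after their values were seen were Hspa8, the constitutive HSP70, at 346, 466 and 412 against 654 and 613 RPKM (log2 change 0.64, adjusted p = 0.0371), and the inducible HSP90 gene Hsp90aa1 at 63.5, 74.4 and 70.01 against 108 and 91.1 (log2 change 0.52, adjusted p = 0.0286). The mitochondrial pair Hspd1 and Hspe1 was not called, at 38.2, 46 and 38.6 against 44.2 and 42 RPKM (log2 change 0.08, adjusted p = 0.664) and at 34.9, 38.6 and 34.6 against 34.1 and 33.4 (log2 change -0.09, adjusted p = 0.515). The calls of Dnajb1, Dnaja1, Cacybp, Hspa8 and Hsp90aa1 (adjusted p 0.0503 to 0.368) ended without tofacitinib replicate 1, those of Cacybp (0.0678), Hspa8 (0.218) and Hsp90aa1 (0.0873) without tofacitinib replicate 2 and those of Hspa8 (0.136) and Hsp90aa1 (0.0975) without vehicle replicate 1.

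The promoters of Hspa1b (chr17:34959189-34959488, minus strand) and Hsph1 (chr5:149636287-149636586, minus strand) are shown because both genes were called whichever library was left out. The windows run from 250 bases before to 50 bases after a RefSeq start in the build GRCm38.p6. Capitals mark the letters GAANNTTC, a pair of inverted HSF1 units, at base -104 from the start in Hspa1b and at base 42 in Hsph1.
Hspa1b: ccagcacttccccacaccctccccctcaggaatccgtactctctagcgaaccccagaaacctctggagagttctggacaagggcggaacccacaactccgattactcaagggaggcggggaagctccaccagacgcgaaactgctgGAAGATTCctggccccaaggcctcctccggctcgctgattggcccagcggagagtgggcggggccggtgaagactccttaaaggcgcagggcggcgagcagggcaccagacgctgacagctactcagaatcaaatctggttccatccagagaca
Hsph1: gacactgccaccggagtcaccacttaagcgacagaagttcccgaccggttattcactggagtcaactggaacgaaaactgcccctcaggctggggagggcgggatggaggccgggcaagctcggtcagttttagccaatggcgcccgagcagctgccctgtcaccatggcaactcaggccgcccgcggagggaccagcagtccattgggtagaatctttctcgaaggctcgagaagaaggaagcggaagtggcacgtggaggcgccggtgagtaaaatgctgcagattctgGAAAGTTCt
These letters, read on both strands, were in 10 of 22 heat shock genes with a window (45.5%) and in 513 of 7549 tested genes with one (6.8%). Among all genes that rose they were in 13 of 133 (9.77%), and among those that fell in 17 of 217 (7.83%).

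Genes tied to FOXO factors and to the resting state of lymphocytes rose in 13 of 33 tested (39.4%, against 1.79% of all genes). None fell. In all, 29 of the 33 had a positive change, and the median was 0.24, against -0.01 for all genes. FOXO factors enter the nucleus when PI3K and AKT are quiet and switch on genes of homing and cell cycle arrest. Besides Pik3ip1 and Il7r, the group held Txnip, which restrains glucose uptake and thioredoxin, at 228, 254 and 230.4 RPKM in vehicle and 432 and 463 in tofacitinib (log2 change 0.92 ± 0.10, adjusted p = 0.00291). Zfp36l2, an RNA-binding protein that hastens mRNA decay, measured 269.5, 264 and 288 RPKM in vehicle and 468 and 489 in tofacitinib (log2 change 0.81 ± 0.10, adjusted p = 0.00437). Both genes were abundant and their groups were well apart. Smaller rises were those of antiproliferative genes. Tob1 rose from 21.6, 24 and 24.4 to 36.4 and 31.6 RPKM (log2 change 0.54 ± 0.09, adjusted p = 0.0177), Btg2 from 115, 109 and 112 to 154 and 146 (log2 change 0.42 ± 0.08, adjusted p = 0.0252) and Cdkn1b, which encodes the cyclin-dependent kinase inhibitor p27, from 69.1, 59.2 and 68.9 to 86.6 and 88.3 (log2 change 0.41 ± 0.09, adjusted p = 0.0413). No groups overlapped. The calls of Txnip, Zfp36l2, Tob1, Btg2 and Cdkn1b (adjusted p 0.0503 to 0.365) ended without tofacitinib replicate 1, those of Zfp36l2, Tob1, Btg2 and Cdkn1b (0.0598 to 0.284) without tofacitinib replicate 2 and those of Tob1 (0.0597), Btg2 (0.0811) and Cdkn1b (0.0846) without vehicle replicate 1. Homing genes, chosen after their values were seen, were not called. Klf2, which drives exit from tissues, overlapped at 354, 381 and 319 against 405 and 372 RPKM, and so did S1pr1, the egress receptor, at 8.53, 8.88 and 6.46 against 7.9 and 7.4.

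Of 19 tested genes in a list of PI3K brakes and growth restraint, Pik3ip1 and Txnip rose (10.5%, against 1.79% of all genes). The 1 member that fell made up 5.26%, against 3.02% of all genes. Castor1, an arginine sensor, fell from 6.63, 8.02 and 4.87 to 2.73 and 3.63 RPKM (log2 change -0.99 ± 0.21, adjusted p = 0.0323). Ddit4, or REDD1, which dampens mTORC1 in stress, was at 24.5, 36.8 and 38.7 against 46.6 and 64.8 RPKM (log2 change 0.75, adjusted p = 0.0709). Pik3cd, the catalytic PI3K subunit of lymphocytes, chosen after its values were seen, fell from 132, 138 and 131 to 109 and 101 RPKM (log2 change -0.35 ± 0.08, adjusted p = 0.0492). The MYC antagonists were chosen likewise. Mxi1 rose from 7.14, 8.44 and 7.14 to 12.2 and 10.6 RPKM (log2 change 0.58 ± 0.11, adjusted p = 0.0251) and Mxd1 from 34.5, 34.5 and 35.1 to 44.3 and 43.5 (log2 change 0.34 ± 0.07, adjusted p = 0.0351), without overlap. Mxd4, at 70.05, 81.4 and 76.1 against 95 and 92.5 RPKM (log2 change 0.31, adjusted p = 0.0819), and Mnt, at 15.1, 15.8 and 14.7 against 14 and 14.7 (log2 change -0.08, adjusted p = 0.574), were not called. The calls of Castor1, Pik3cd, Mxi1 and Mxd1 (adjusted p 0.284 to 0.382) ended without tofacitinib replicate 1, those of all 4 (0.066 to 0.415) without tofacitinib replicate 2 and those of all 4 (0.0735 to 0.138) without vehicle replicate 1. The mRNA decay factors of the ZFP36, BTG and CCR4-NOT families had 3 of 24 members higher (12.5%, against 1.79% of all genes). These were Zfp36l2, Tob1 and Btg2, none was lower and the median was 0.12.

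The letters GTAAACA, which FOXO and other forkhead factors bind, were in the promoter windows of 13 of 133 (9.77%) of the genes that rose, 7 of 217 (3.23%) of those that fell and 240 of 7549 (3.18%) of all genes. Capitals mark them in Txnip (chr3:96557707-96558006, plus strand, at base -121) and Mxi1 (chr19:53329445-53329744, plus strand, at base -231, in 1 of its 3 starts), shown as genes of growth restraint that rose.
Txnip: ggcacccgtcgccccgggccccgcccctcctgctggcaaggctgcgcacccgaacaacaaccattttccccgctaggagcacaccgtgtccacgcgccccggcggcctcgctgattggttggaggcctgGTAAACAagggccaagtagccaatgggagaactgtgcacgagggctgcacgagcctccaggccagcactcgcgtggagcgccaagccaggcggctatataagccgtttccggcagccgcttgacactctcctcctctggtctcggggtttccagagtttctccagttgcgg
Mxi1: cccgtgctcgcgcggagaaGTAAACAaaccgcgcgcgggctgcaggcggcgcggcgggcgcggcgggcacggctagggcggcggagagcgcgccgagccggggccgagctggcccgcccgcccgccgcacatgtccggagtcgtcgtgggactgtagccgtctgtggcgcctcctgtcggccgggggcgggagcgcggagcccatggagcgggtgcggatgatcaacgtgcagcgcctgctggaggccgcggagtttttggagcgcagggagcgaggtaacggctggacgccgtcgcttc
Within the list of FOXO-linked genes the letters were in 4 of 28 (14.3%).

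Genes that glucocorticoids raise in many cells had a median of 0.51 over 15 tested. Of these, 7 were higher (46.7%, against 1.79% of all genes) and none lower. Cxcr4, Il7r, Tsc22d3 and Dusp1 are among the 7 and are described above, and they respond to other signals as well. Sgk1, a kinase close to AKT, rose from 29.7, 28.7 and 31.4 to 45.2 and 40.5 RPKM (log2 change 0.51 ± 0.08, adjusted p = 0.0142). Per1, a core clock gene, rose from 6.65, 7.78 and 6.62 to 10.04 and 10.8 RPKM (log2 change 0.57 ± 0.10, adjusted p = 0.0231). Klf9, a zinc finger factor named after its values were seen, rose from 2.85, 3.43 and 3.08 to 4.7 and 4.76 RPKM (log2 change 0.59 ± 0.13, adjusted p = 0.0413). None of the 3 overlapped. The calls of Sgk1 (adjusted p 0.243), Per1 (0.161) and Klf9 (0.329) ended without tofacitinib replicate 1, those of Sgk1 (0.0686), Per1 (0.201) and Klf9 (0.268) without tofacitinib replicate 2, those of Sgk1 (0.0526), Per1 (0.0661) and Klf9 (0.101) without vehicle replicate 1 and that of Klf9 (0.0629) without vehicle replicate 3. Per1 was the only one called of 12 circadian genes (8.33%, against 1.79% higher of all genes), whose median was 0.13. Of the other clock genes, Cry2 was at 4.15, 4.32 and 4.61 against 5.9 and 4.89 RPKM (log2 change 0.30, adjusted p = 0.19) and Arntl at 11.8, 11.3 and 10.4 against 12.5 and 13.4 (log2 change 0.22, adjusted p = 0.19).

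Among 26 tested transcription factors of progenitor and memory-type lymphocytes and their opponents, 2 rose (7.69%, against 1.79% of all genes) and none fell. The median was 0.06. Bcl6, a repressor that opposes effector differentiation, rose from 5.89, 5.33 and 4.74 to 10.2 and 10.5 RPKM (log2 change 0.95 ± 0.11, adjusted p = 0.00387). Bach2, a repressor with a like role, rose from 6.66, 7.94 and 6.77 to 11.4 and 10.8 RPKM (log2 change 0.64 ± 0.10, adjusted p = 0.0142). The groups did not overlap for either gene. The calls of Bcl6 (adjusted p 0.05) and Bach2 (0.179) ended without tofacitinib replicate 1 and that of Bach2 (0.0917) without tofacitinib replicate 2. Both genes are also strong in B cells. The B cell markers Cd79a, at 29.6, 40.2 and 29.1 against 34.5 and 47.1 RPKM, and Ms4a1, at 6.14, 10.4 and 7.26 against 8.8 and 10.7, overlapped between the groups, and their part in the rise of Bcl6 and Bach2 was not tested. Tcf7, which encodes TCF-1, and its relative Lef1 had tofacitinib values above the vehicle values without a call, at 65.9, 57.4 and 51.8 against 71.3 and 79.8 RPKM (log2 change 0.38, adjusted p = 0.0876) and at 19.9, 18.2 and 17.4 against 24.2 and 23.1 (log2 change 0.35, adjusted p = 0.0515).

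Of 16 tested receptors that steer lymphocytes between blood, marrow and tissue, Cxcr4 rose (6.25%, against 1.79% of all genes). In the same list 5 fell (31.2%, against 3.02%). Ccr2, which draws cells to CCL2, fell from 136, 109 and 109 to 65.6 and 69.5 RPKM (log2 change -0.80 ± 0.11, adjusted p = 0.00697). Cmklr1, the chemerin receptor, fell from 45.3, 62.4 and 47.6 to 33.4 and 29.3 RPKM (log2 change -0.71 ± 0.14, adjusted p = 0.0251). Cx3cr1, the fractalkine receptor, fell from 11.8, 14.1 and 13.1 to 8.47 and 9.85 RPKM (log2 change -0.50 ± 0.11, adjusted p = 0.0377). The groups were apart for these genes and for P2ry14, a receptor for UDP-glucose that also fell (log2 change -0.78, adjusted p = 0.0454). The calls of Ccr2, Cmklr1, Cx3cr1 and P2ry14 (adjusted p 0.11 to 0.404) ended without tofacitinib replicate 1, those of Cmklr1 (0.187), Cx3cr1 (0.107) and P2ry14 (0.136) without tofacitinib replicate 2, that of P2ry14 (0.0833) without vehicle replicate 1, that of P2ry14 (0.0536) without vehicle replicate 2 and those of Cx3cr1 (0.0648) and P2ry14 (0.0779) without vehicle replicate 3. Ccr2 is also among the 12 markers of macrophages and monocytes, of which 3 were expressed enough to be tested. All 3 had both tofacitinib libraries below vehicle (100%, against 23.9% of all genes). Besides Ccr2 these were Lyz2, at 2.6, 1.57 and 1.77 against 0.844 and 1.15 RPKM, and Hmox1, at 6.22, 6.56 and 8.24 against 6.15 and 5.77, neither of them called. Csf1r, Adgre1 and Cd14 were under an RPKM of 1 in every library. The part of such cells in the values of Ccr2 was not tested.

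In the TNF superfamily 1 of 16 tested members rose (6.25%, against 1.79% of all genes) and 3 fell (18.8%, against 3.02%). Fasl, the ligand of the death receptor Fas, fell from 59, 54.2 and 57.4 to 34.7 and 34 RPKM (log2 change -0.72 ± 0.08, adjusted p = 0.00244), and was called whichever library was left out. Tnfrsf9, or 4-1BB, a costimulatory receptor, fell from 13.3, 14.2 and 9.86 to 5.57 and 5.6 RPKM (log2 change -1.12 ± 0.15, adjusted p = 0.0055), whereas its ligand Tnfsf9 rose from 0.794, 0.837 and 0.938 to 1.9 and 2.15 (log2 change 1.15 ± 0.23, adjusted p = 0.0286). Tnfrsf18, or GITR, fell from 50.5, 46.8 and 43.2 to 34 and 34.9 RPKM (log2 change -0.44 ± 0.09, adjusted p = 0.0277). None of the 4 had overlapping groups. The calls of Tnfrsf9 (adjusted p 0.0503), Tnfsf9 (0.287) and Tnfrsf18 (0.303) ended without tofacitinib replicate 1, those of Tnfsf9 (0.292) and Tnfrsf18 (0.193) without tofacitinib replicate 2 and those of Tnfsf9 (0.066) and Tnfrsf18 (0.0877) without vehicle replicate 1.

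NK receptors outside the Ly49 family fell in 5 of 24 tested (20.8%, against 3.02% of all genes) and rose in none. The median was 0.02. Klrb1a, of the NKR-P1 family, fell most, from 132, 133 and 126 to 65.4 and 70.4 RPKM (log2 change -0.94 ± 0.08, adjusted p = 0.00105), and was called whichever library was left out. Its relative Klrb1c fell from 202, 208 and 189 to 138 and 137 RPKM (log2 change -0.54 ± 0.09, adjusted p = 0.0131). Ncr1, the gene of the NKp46 receptor used to gate the cells, fell from 1013, 994 and 935 to 638 and 645 RPKM (log2 change -0.61 ± 0.12, adjusted p = 0.0251). Slamf7, a receptor of the SLAM family, fell from 32.9, 35.6 and 31.7 to 19.7 and 21.6 RPKM (log2 change -0.69 ± 0.09, adjusted p = 0.0049), and Cd226, or DNAM-1, an activating receptor, from 33.4, 27.2 and 33.3 to 20.6 and 22.2 (log2 change -0.54 ± 0.11, adjusted p = 0.0269). The integrin Itga2, the antigen of the DX5 antibody, fell from 59, 55.9 and 62.5 to 47 and 41.8 RPKM (log2 change -0.41 ± 0.09, adjusted p = 0.0358). With Cd226 it made up the 2 of 20 adhesion genes that fell (10%, against 3.02% of all genes). Groups were again apart. The calls of Klrb1c, Ncr1, Slamf7, Cd226 and Itga2 (adjusted p 0.0894 to 0.383) ended without tofacitinib replicate 1, those of Klrb1c, Ncr1, Cd226 and Itga2 (0.13 to 0.335) without tofacitinib replicate 2, those of Klrb1c, Ncr1, Cd226 and Itga2 (0.0653 to 0.131) without vehicle replicate 1 and those of Cd226 (0.0536) and Itga2 (0.0582) without vehicle replicate 3.

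Of 22 tested cytokine receptor chains, Il7r and Il10ra rose (9.09%, against 1.79% of all genes) and 3 fell (13.6%, against 3.02%). Il10ra, the ligand-binding chain for IL-10, rose from 92.7, 84.1 and 80.1 to 109 and 112 RPKM (log2 change 0.37 ± 0.09, adjusted p = 0.049). Both chains for IL-12, which drives interferon gamma production in NK cells, fell, Il12rb2 from 45.8, 50.5 and 42.2 to 31.7 and 34.4 RPKM (log2 change -0.48 ± 0.09, adjusted p = 0.0275) and Il12rb1 from 8.38, 9.5 and 9.59 to 6.15 and 6.75 (log2 change -0.50 ± 0.10, adjusted p = 0.0309). Il3ra, a chain for IL-3, fell from 6.06, 5.05 and 4.97 to 3.3 and 3.01 RPKM (log2 change -0.74 ± 0.13, adjusted p = 0.019). No groups overlapped. The calls of Il10ra, Il12rb2, Il12rb1 and Il3ra (adjusted p 0.124 to 0.368) ended without tofacitinib replicate 1, those of all 4 (0.139 to 0.336) without tofacitinib replicate 2, those of Il10ra (0.076), Il12rb2 (0.0793) and Il3ra (0.0561) without vehicle replicate 1 and those of Il10ra (0.066) and Il12rb1 (0.0584) without vehicle replicate 3.

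Cilium and centriole genes, whose products also build the centrosome that NK cells turn towards a target, rose in 4 of 41 tested and fell in none. The 4 made up 9.76%, against 1.79% of all genes. Of the 41, 33 had a positive change, and the median was 0.19. Hyls1, a centriolar protein of the ciliary base, rose from 3.4, 2.97 and 3.29 to 6.21 and 5.12 RPKM (log2 change 0.79 ± 0.13, adjusted p = 0.0163), and Tmem216, of the ciliary transition zone, from 2.83, 2.68 and 1.91 to 4.11 and 4.68 (log2 change 0.82 ± 0.19, adjusted p = 0.0443). Tbc1d31 rose from 1.42, 1.83 and 1.54 to 3.02 and 2.72 RPKM (log2 change 0.81 ± 0.18, adjusted p = 0.043) and Bbs4, a subunit of the BBSome, from 2.87, 2.86 and 3.13 to 4.48 and 4.28 (log2 change 0.55 ± 0.12, adjusted p = 0.0442). The groups were apart in each, at low levels. Of centrosomal genes outside the list, chosen after their values were seen, Haus5 of the augmin complex rose from 7.2, 7.41 and 7.81 to 11.6 and 11.6 RPKM (log2 change 0.62, adjusted p = 0.00738), Mdm1, a centriolar microtubule-binding protein, from 7.94, 8.21 and 8.09 to 12.2 and 12.1 (log2 change 0.58, adjusted p = 0.00787) and Ccp110, a centriole cap, from 2.62, 2.95 and 2.73 to 4.89 and 4.36 (log2 change 0.72, adjusted p = 0.0221). The calls of Hyls1, Tmem216, Tbc1d31, Bbs4, Haus5, Mdm1 and Ccp110 (adjusted p 0.116 to 0.405) ended without tofacitinib replicate 1, those of all 7 (0.0598 to 0.29) without tofacitinib replicate 2, those of Tmem216, Tbc1d31, Bbs4 and Ccp110 (0.0597 to 0.104) without vehicle replicate 1 and those of Tbc1d31 (0.0665) and Bbs4 (0.0503) without vehicle replicate 3.

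Of 26 tested members of a histone list that does not hold every histone gene, 3 rose (11.5%, against 1.79% of all genes). The median was 0.29. The linker histone gene Hist1h1c rose from 11.4, 8.19 and 6.79 to 29.7 and 18.4 RPKM (log2 change 1.43 ± 0.23, adjusted p = 0.0142), Hist3h2a from 17.5, 18.1 and 16.4 to 22.3 and 22.3 (log2 change 0.36 ± 0.08, adjusted p = 0.0403) and Hist1h4n, an H4 gene, from 0.0124, 0.273 and 0.298 to 2.42 and 1.6704 (log2 change 3.05 ± 0.60, adjusted p = 0.028). Their groups were apart. The calls of Hist1h1c (adjusted p 0.113), Hist3h2a (0.345) and Hist1h4n (0.37) ended without tofacitinib replicate 1, those of Hist3h2a (0.277) and Hist1h4n (0.181) without tofacitinib replicate 2, that of Hist3h2a (0.0992) without vehicle replicate 1 and that of Hist3h2a (0.0627) without vehicle replicate 3. Most histone transcripts lack a poly(A) tail and many histone genes are near-identical copies, so their levels are uncertain. Of the other histone genes higher at the threshold of the study, Hist1h2ao, which is outside the list, was called (log2 change 0.84, adjusted p = 0.0379). The 6 others, from Hist1h4h (log2 change 1.51, adjusted p = 0.0515) to Hist1h4i (log2 change 0.74, adjusted p = 0.0655), were not.

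The remaining genes higher at the threshold of the study were mostly low. Xlr3b, from an X-linked family of similar genes, rose from 0.526, 0.202 and 0.487 to 2.4 and 2.03 RPKM (log2 change 2.26 ± 0.39, adjusted p = 0.0171). Tmod4, a capper of actin filaments, rose from 2.08, 1.66 and 3.05 to 5.34 and 5.43 RPKM (log2 change 1.26 ± 0.22, adjusted p = 0.0206), and Cox7a1, a respiratory chain subunit of muscle, from 0.837, 0.675 and 0.901 to 1.89 and 2.1 (log2 change 1.22 ± 0.24, adjusted p = 0.0296). Angpt1, which encodes the secreted ligand angiopoietin 1, was better expressed and rose from 6.94, 7 and 6.05 to 11.4 and 11.2 RPKM (log2 change 0.76 ± 0.10, adjusted p = 0.0055). Each had both tofacitinib values above the vehicle values. The calls of Xlr3b, Tmod4, Cox7a1 and Angpt1 (adjusted p 0.0855 to 0.292) ended without tofacitinib replicate 1, those of all 4 (0.0545 to 0.288) without tofacitinib replicate 2 and those of Tmod4 (0.0595) and Cox7a1 (0.0615) without vehicle replicate 1. Erp27, Tbx6, Kifc5b, Cyp2d22, Acrbp, Tbxa2r, Ms4a6c and Wdcp were called as well, with log2 changes of 0.79 to 1.35 and adjusted p of 0.0194 to 0.0481. Pet117, Hspb11, Chek2, Ctrcos, Enkd1, Aqp11, Ddb2, Xlr4a, Zfp692 and Proser3 had log2 changes of 0.74 to 1.33 and adjusted p of 0.0537 to 0.182, and none of them was called.

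Some well expressed genes that rose were chosen after their values were seen. The Polycomb gene Cbx7 rose from 27.5, 25.2 and 28.1 to 46 and 40.5 RPKM (log2 change 0.68, adjusted p = 0.0055), the cell cycle phosphatase gene Cdc25b from 27.5, 28.5 and 24.9 to 44.5 and 41.3 (log2 change 0.67, adjusted p = 0.00548) and the ubiquitin ligase gene Rnf125 from 17.1, 17.4 and 17.4 to 27.5 and 26.3 (log2 change 0.63, adjusted p = 0.00377). The BH3-only death genes Bbc3 and Bcl2l11 rose from 24.2, 25.6 and 28.1 to 42.2 and 42 RPKM (log2 change 0.70, adjusted p = 0.00444) and from 18.9, 19.6 and 18 to 27.1 and 26.4 (log2 change 0.50, adjusted p = 0.0107). No groups overlapped here. The calls of Cbx7, Cdc25b, Rnf125, Bbc3 and Bcl2l11 (adjusted p 0.0678 to 0.174) ended without tofacitinib replicate 1 and that of Bcl2l11 (0.11) without tofacitinib replicate 2.

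Of 34 tested genes that type I interferon raises, 12 fell (35.3%, against 3.02% of all genes) and none rose. Both tofacitinib libraries were below all vehicle libraries for 28 of them (82.4%, against 23.9% of all genes), and the median was -0.41. Irf9, a subunit of the factor that type I interferon brings to DNA, fell from 24, 25.7 and 26.7 to 15.1 and 16.6 RPKM (log2 change -0.68 ± 0.09, adjusted p = 0.00497). Further members that fell were Lgals3bp, a secreted glycoprotein, at 41.8, 47 and 41.1 against 24 and 27.9 RPKM (log2 change -0.74, adjusted p = 0.0055), Ifi35 at 29.6, 29.5 and 28.9 against 20.6 and 21.8 (log2 change -0.47, adjusted p = 0.0117) and Dhx58, a helicase that senses viral RNA, at 5.31, 4.8 and 4.79 against 3.1 and 3.31 (log2 change -0.61, adjusted p = 0.0252). The groups were apart for all 4. The calls of Irf9, Lgals3bp, Ifi35 and Dhx58 (adjusted p 0.0929 to 0.282) ended without tofacitinib replicate 1, those of Ifi35 (0.1) and Dhx58 (0.148) without tofacitinib replicate 2 and that of Dhx58 (0.0792) without vehicle replicate 1.

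GTPases that interferon gamma induces against vacuolar pathogens fell in 5 of 14 (35.7%, against 3.02% of all genes), with a median of -0.24. Igtp fell from 18.3, 18.6 and 18 to 9.71 and 10.1 RPKM (log2 change -0.88 ± 0.08, adjusted p = 0.00117) and Irgm2 from 10.6, 10.2 and 11.7 to 6.16 and 5.96 (log2 change -0.82 ± 0.09, adjusted p = 0.00348). The groups were far apart and both were called whichever library was left out. Gvin1 (log2 change -0.64, adjusted p = 0.0107), Tgtp2 (log2 change -0.56, adjusted p = 0.0185) and Gbp6 (log2 change -0.85, adjusted p = 0.0296) fell too. Of 23 genes of MHC class I presentation 2 fell (8.7%, against 3.02% of all genes). In 14 of the 23 both tofacitinib libraries were below vehicle (60.9%, against 23.9% of all genes). Nlrc5, the transactivator of MHC class I genes, fell from 12.7, 10.5 and 13.3 to 6.67 and 7.97 RPKM (log2 change -0.72 ± 0.12, adjusted p = 0.0177), and the proteasome activator Psme2 from 104, 118 and 104 to 78.4 and 80.7 (log2 change -0.45 ± 0.09, adjusted p = 0.028). The calls of Gvin1, Tgtp2, Gbp6, Nlrc5 and Psme2 (adjusted p 0.13 to 0.332) ended without tofacitinib replicate 1, those of Gvin1, Tgtp2, Gbp6 and Psme2 (0.0662 to 0.207) without tofacitinib replicate 2, those of Tgtp2, Gbp6, Nlrc5 and Psme2 (0.0595 to 0.0896) without vehicle replicate 1 and that of Gbp6 (0.0502) without vehicle replicate 3. The promoter of Igtp (chr11:58199306-58199605, plus strand) is shown as that of a gene called whichever library was left out, with the letters TTCNNNGAA of the GAS element, which STAT dimers bind, in capitals at base -45.
Igtp: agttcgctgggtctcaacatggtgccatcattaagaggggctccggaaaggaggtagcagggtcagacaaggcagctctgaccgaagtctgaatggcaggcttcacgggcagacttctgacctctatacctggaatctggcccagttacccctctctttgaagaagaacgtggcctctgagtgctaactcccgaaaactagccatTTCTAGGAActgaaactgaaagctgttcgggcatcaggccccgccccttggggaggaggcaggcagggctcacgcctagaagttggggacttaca
These letters were in 29 of 217 (13.4%) of the windows of genes that fell, 11 of 133 (8.27%) of those that rose, 640 of 7549 (8.48%) of all and 6 of 26 (23.1%) of the type I interferon genes.

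Of 79 tested genes of a ribosome biogenesis list, which also holds the tRNA methyltransferase genes Mettl1 and Trmt61a, 27 fell and none rose. The 27 made up 34.2%, against 3.02% of all genes. Both tofacitinib libraries were below vehicle for 56 of the 79 (70.9%, against 23.9% of all genes), and the median was -0.26. Tsr1, which matures the small subunit, fell from 7.79, 8.38 and 8.33 to 3.38 and 3.45 RPKM (log2 change -1.23 ± 0.10, adjusted p = 0.00093). Bysl, also of the small subunit, fell from 5.76, 8.36 and 6.84 to 2.92 and 2.82 RPKM (log2 change -1.24 ± 0.15, adjusted p = 0.00495), and Mettl1, a tRNA methyltransferase, from 2.79, 2.53 and 3.35 to 1.03 and 0.904 (log2 change -1.48 ± 0.19, adjusted p = 0.0055). Nhp2, of the pseudouridine particles, fell from 21.4, 21.5 and 19.2 to 11.5 and 12.1 RPKM (log2 change -0.81 ± 0.09, adjusted p = 0.00263), and Rcl1, of small subunit processing, from 8.31, 8.23 and 9.21 to 4.77 and 4.06 (log2 change -0.95 ± 0.11, adjusted p = 0.00377). No groups overlapped and all 5 were called whichever library was left out.

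The letters CACGTG are the E-box that MYC with MAX and other factors bind. They were in 11 of 23 windows (47.8%) of ribosome biogenesis list members that fell and 19 of 70 (27.1%) of all tested members. Over all genes they were in 939 of 7549 (12.4%). The share was 41 of 217 (18.9%) for all genes that fell and 18 of 133 (13.5%) for those that rose. Capitals mark them in Tsr1 (chr11:74897830-74898129, plus strand, at base 25) and in Apex1 (chr14:50924699-50924998, plus strand, at bases -24, 1 and 22), a DNA repair endonuclease gene that fell and was chosen after its values were seen.
Tsr1: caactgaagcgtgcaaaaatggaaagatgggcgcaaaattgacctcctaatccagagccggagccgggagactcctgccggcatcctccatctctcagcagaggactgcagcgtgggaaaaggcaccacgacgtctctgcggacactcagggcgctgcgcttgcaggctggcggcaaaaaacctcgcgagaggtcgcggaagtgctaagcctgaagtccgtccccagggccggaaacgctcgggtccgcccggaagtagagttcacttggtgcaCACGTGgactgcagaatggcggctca
Apex1: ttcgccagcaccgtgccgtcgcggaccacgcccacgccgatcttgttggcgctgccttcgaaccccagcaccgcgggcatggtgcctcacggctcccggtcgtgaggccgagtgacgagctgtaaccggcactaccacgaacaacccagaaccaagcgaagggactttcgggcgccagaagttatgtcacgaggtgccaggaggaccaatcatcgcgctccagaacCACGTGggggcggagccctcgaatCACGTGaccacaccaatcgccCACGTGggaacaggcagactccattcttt
Apex1 and Tsr1 were both called whichever library was left out. A match of letters describes the sequence, and binding was not measured.

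**Figure D4:**
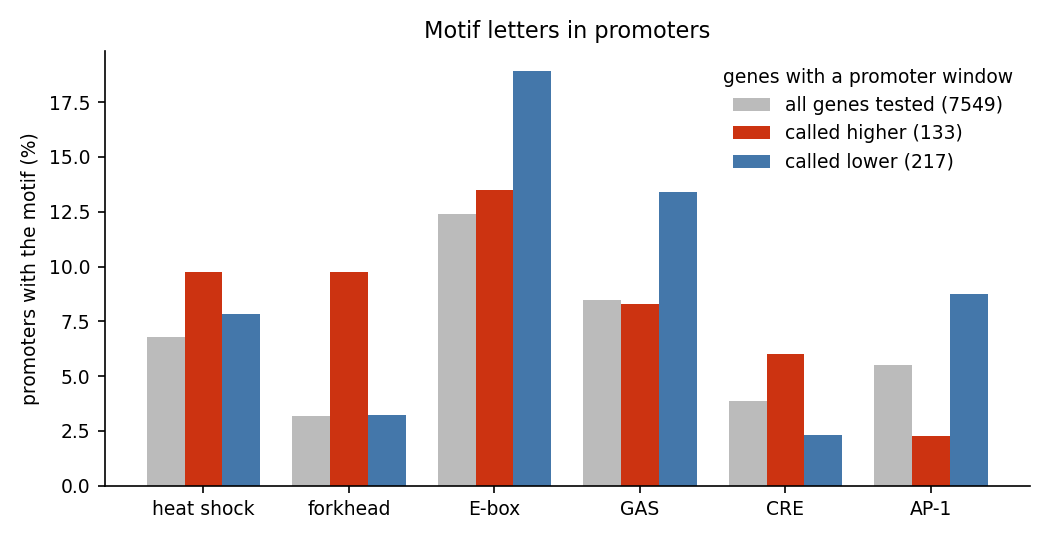
Percent of promoter windows (250 bases before to 50 after a RefSeq start) that hold the letters of 6 motifs, for all tested genes (7549 with a window), genes that rose (133) and genes that fell (217). Forkhead letters were in 3.18%, 9.77% and 3.23%, and E-box letters in 12.4%, 13.5% and 18.9%.

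All 82 tested cytosolic ribosomal protein genes had a negative change, and their median was -0.21. In 59 of them both tofacitinib libraries were below vehicle (72.0%, against 23.9% of all genes). Only Rps27l was called (log2 change -0.43 ± 0.10, adjusted p = 0.0481), which made up 1.22%, against 3.02% lower of all genes. After quantile normalization the median was -0.05. Ribosomal protein transcripts are short, and the fifth of genes with the shortest exon length had a median change of -0.09, against 0.02 for the longest, so length and function cannot be told apart here. Translation factors and tRNA synthetases fell in 4 of 52 (7.69%, against 3.02% of all genes), with a median of -0.18. Eif4a1, the helicase of cap-dependent initiation, fell from 142, 148 and 135 to 101 and 102 RPKM (log2 change -0.48 ± 0.08, adjusted p = 0.0175), and the synthetase genes Lars (log2 change -0.38, adjusted p = 0.0415), Eprs (log2 change -0.40, adjusted p = 0.0443) and Yars (log2 change -0.37, adjusted p = 0.0491) fell less. The calls of Rps27l, Eif4a1, Lars, Eprs and Yars (adjusted p 0.28 to 0.431) ended without tofacitinib replicate 1, those of all 5 (0.187 to 0.297) without tofacitinib replicate 2 and those of all 5 (0.0717 to 0.132) without vehicle replicate 1.

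Mitochondrial import and biogenesis genes fell in 4 of 32 (12.5%, against 3.02% of all genes) and rose in none, with a median of -0.15. The intermembrane chaperones Timm8a1 and Timm10 fell from 4.22, 3.75 and 3.5 to 1.96 and 1.8 RPKM (log2 change -0.99 ± 0.15, adjusted p = 0.00992) and from 7.71, 6.99 and 6 to 3.45 and 4.18 (log2 change -0.84 ± 0.14, adjusted p = 0.0145). Pprc1, a coactivator of mitochondrial biogenesis, fell from 4.67, 4.85 and 4.84 to 2.93 and 2.46 RPKM (log2 change -0.81 ± 0.13, adjusted p = 0.0117). Groups were apart. The calls of Timm8a1 (adjusted p 0.0852), Timm10 (0.163) and Pprc1 (0.0662) ended without tofacitinib replicate 1 and those of Timm8a1 (0.0885) and Pprc1 (0.13) without tofacitinib replicate 2. Of 78 mitochondrial ribosomal proteins 4 fell (5.13%, against 3.02% of all genes), with a median of -0.12. Of 77 respiratory chain and ATP synthase subunits Cox7a1 rose (1.3%, against 1.79% of all genes), none was called lower and the median was -0.20. In 40 of them both tofacitinib libraries were below vehicle (51.9%, against 23.9%). Members of both lists have short exons, among them Cox7b (1001 bases), Ndufc2 (754), Ndufs5 (860), Mrpl52 (491) and Mrpl54 (604). The fifth of genes with the shortest exon length, up to 1782 bases, had a median change of -0.09. The part of length in the medians of these 2 lists was not tested.

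Genes of amino acid, polyamine, one-carbon and nucleotide supply fell in 10 of 36 tested (27.8%, against 3.02% of all genes) and rose in none. The median was -0.22. Slc7a1, an arginine transporter, fell from 6.71, 6.96 and 6.51 to 3.25 and 3.55 RPKM (log2 change -0.97 ± 0.11, adjusted p = 0.00293), and was called whichever library was left out. Ctps, which makes CTP, fell from 2.62, 3.35 and 2.96 to 1.01 and 1.36 RPKM (log2 change -1.27 ± 0.20, adjusted p = 0.0114), and Nme1, a nucleoside diphosphate kinase, from 32.3, 41.1 and 30.3 to 18 and 19.8 (log2 change -0.86 ± 0.13, adjusted p = 0.0099). The groups did not overlap. Of 17 glycolysis genes Pfkp, a phosphofructokinase, fell from 50.5, 57.5 and 52.2 to 38.5 and 40.7 RPKM (log2 change -0.43 ± 0.08, adjusted p = 0.0276). Pfkp made up 5.88% of the list, against 3.02% lower of all genes. In 12 of the 17 both tofacitinib libraries were below vehicle (70.6%, against 23.9% of all genes), and the median was -0.24. The calls of Ctps (adjusted p 0.124), Nme1 (0.112) and Pfkp (0.335) ended without tofacitinib replicate 1, that of Pfkp (0.176) without tofacitinib replicate 2 and that of Pfkp (0.0597) without vehicle replicate 1. Of 21 cholesterol genes Acat2, a thiolase, rose (log2 change 0.55, adjusted p = 0.0484) and none fell. Acat2 made up 4.76% of the list, against 1.79% higher of all genes. Of 46 autophagy and lysosome genes 1 fell (2.17%, against 3.02% of all genes) and none rose. The medians of these lists were -0.03 and 0.01. The call of Acat2 ended without tofacitinib replicate 1 (adjusted p 0.295), tofacitinib replicate 2 (0.261), vehicle replicate 2 (0.0522) or vehicle replicate 3 (0.0678).

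Of 21 tested G1 genes, 5 fell (23.8%, against 3.02% of all genes) and Cdkn1b rose (4.76%, against 1.79%). Ccnd2, a cyclin D that cytokines induce in lymphocytes, fell from 65.2, 86.8 and 75.1 to 32.2 and 35.1 RPKM (log2 change -1.16 ± 0.12, adjusted p = 0.00234) and its kinase Cdk6 from 3.5, 3.45 and 3.86 to 2.13 and 2.07 (log2 change -0.75 ± 0.14, adjusted p = 0.0221). Feedback genes and other targets of STAT5 fell in 11 of 12 tested (91.7%, against 3.02% of all genes), with a median of -0.97. Socs1, an inhibitor that binds JAKs, fell from 9.96, 12.9 and 13.7 to 2.94 and 4.26 RPKM (log2 change -1.74 ± 0.18, adjusted p = 0.00234). Pim2, a kinase of growth and survival, fell from 31.5, 39.3 and 31.9 to 11 and 13.3 RPKM (log2 change -1.49 ± 0.12, adjusted p = 0.00093). Of the other large falls, F2rl2, a thrombin receptor family member, fell from 3.79, 5.28 and 2.93 to 0.731 and 0.998 RPKM (log2 change -2.06 ± 0.25, adjusted p = 0.00485) and Bspry from 5.35, 6.43 and 5.46 to 1.56 and 2.03 (log2 change -1.63 ± 0.15, adjusted p = 0.00177). No groups overlapped, and Ccnd2, Socs1, Pim2, F2rl2 and Bspry were called whichever library was left out. Stc2 (log2 change -1.47, adjusted p = 0.0236), Gm8817 (log2 change -1.47, adjusted p = 0.0243) and Slc7a5, a transporter of large amino acids (log2 change -1.45, adjusted p = 0.00697), fell as well. The calls of Cdk6, Stc2, Gm8817 and Slc7a5 (adjusted p 0.066 to 0.202) ended without tofacitinib replicate 1, that of Cdk6 (0.17) without tofacitinib replicate 2, those of Cdk6 (0.0597) and Stc2 (0.066) without vehicle replicate 1 and those of Stc2 (0.0557) and Gm8817 (0.0587) without vehicle replicate 3.

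Liver ILC1 of the same treatments served to show where the NK response differed. Levels are set side by side without a test, since each cell type has its own table, normalized apart from the other. Of the 170 genes that rose in NK cells, 158 were tested in ILC1, where 142 had a positive change and 34 had both tofacitinib libraries above vehicle (21.5%, against 1.97% of all 8981 genes tested in both). Of the 286 that fell, 273 were tested, 17 had a positive change and 96 had both tofacitinib libraries below vehicle (35.2%, against 2.79%). The median changes in ILC1 were 0.42 and -0.59, against 0.51 and -0.59 in NK cells. The sample sheet gives the ILC1 libraries 3 runs, of which one holds vehicle replicate 2 and tofacitinib replicate 1 and another vehicle replicate 3 and tofacitinib replicate 2. The first pair stood apart, with summed RPKM of 209768 and 225694 against 320659 to 348227 in the other 3 libraries and with Rn45s, a ribosomal RNA precursor, as the gene of highest RPKM. Within runs, tofacitinib was higher in both pairs for 133 of the 158 genes (84.2%, against 39.5% of all) and lower in both for 200 of the 273 (73.3%, against 18.5%). In a joint limma fit the response differed between the cell types in 13 of 8981 genes (0.145%). With the ILC1 run as a block the number was 17, and 11 of the 13 were among them, all but Hspa1a and Hspa1b. Of the 13, Hspa1a, Hspa1b and Stmn1 had risen in NK cells. Hspa1b was at 204, 89.5 and 96.6 against 243 and 361 RPKM in ILC1 (change 1.29, difference 2.15 ± 0.48, adjusted p = 0.00703, and 1.77 ± 0.48, adjusted p = 0.278 with the run block), with vehicle libraries far above those of NK cells. Stmn1, a microtubule regulator, was at 104, 129.5 and 105 against 159 and 153 RPKM in NK cells (log2 change 0.48, adjusted p = 0.0481) and at 45.6, 39.8 and 50.8 against 11.3 and 18.2 in ILC1 (difference 2.12 ± 0.50, adjusted p = 0.0123, and 2.12 ± 0.19, adjusted p = 0.000367 with the run block). The changes of Stmn1 were opposite in sign, and the groups did not overlap in either cell type. The call of Stmn1 ended without tofacitinib replicate 1 (adjusted p 0.387), tofacitinib replicate 2 (0.248), vehicle replicate 1 (0.149) or vehicle replicate 3 (0.0719).

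For the other rising genes followed here no difference between the cell types was called. Cxcr4 was at 2.31, 2.19 and 3.62 against 5.43 and 21 RPKM in ILC1 (change 1.98, difference 0.35 ± 0.47, adjusted p = 1), and Pik3ip1 at 6.86, 2.79 and 6.82 against 7.8 and 21 (change 1.32, difference -0.03 ± 0.46, adjusted p = 1). The groups were apart in both, but the tofacitinib libraries of ILC1 were far from each other. Bcl6 was at 2.23, 1.57 and 1.72 against 5.26 and 8.32 RPKM (change 1.81, difference -0.85 ± 0.45, adjusted p = 1). Jun was at 46.6, 29.7 and 58.5 against 61.4 and 133 RPKM (change 1.06, difference 1.30 ± 0.48, adjusted p = 1), and Fos at 22.1, 23.3 and 49.3 against 33.9 and 115 (change 1.08, difference 1.16 ± 0.46, adjusted p = 1). The groups overlapped for Fos and not for Jun. Hsph1 overlapped as well, at 17.5, 8.82 and 16.9 against 8.73 and 19.7 RPKM (change -0.07, difference 0.92 ± 0.47, adjusted p = 1). Nor was a difference called for any of these 6 genes with the ILC1 run as a block (adjusted p 0.127 to 0.762). Within the 2 runs Fos was at 23.3 against 33.9 and at 49.3 against 115 RPKM, higher in tofacitinib in both, and Hsph1 at 8.82 against 8.73 and at 16.9 against 19.7. With these standard errors, a p that misses the threshold does not show that the responses were alike.

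**Figure D5:**
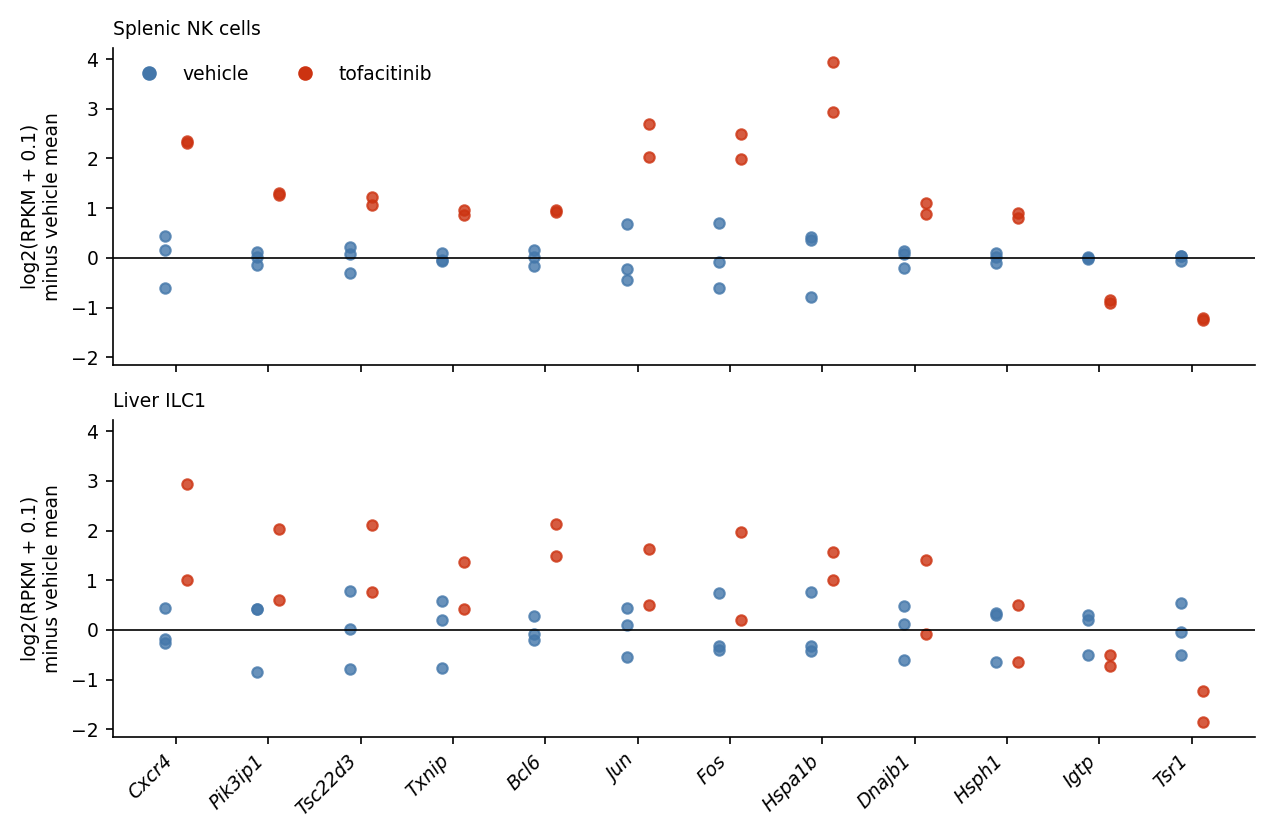
Log2(RPKM + 0.1) of 12 genes in each library minus the vehicle mean of the same cell type, in splenic NK cells (top) and liver ILC1 (bottom), for 3 vehicle and 2 tofacitinib libraries each. In ILC1 the libraries of a group are spread more widely, and Tsc22d3, Txnip, Fos, Dnajb1 and Hsph1 overlap between the groups.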

How the data were processed

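RNA from splenic NK cells and liver ILC1 sorted from mice given tofacitinib or vehicle was sequenced in single-end reads of 50 bases on an Illumina HiSeq3000. The authors mapped the reads to mm10 with TopHat 2.1.1 and computed the deposited RPKM values in Partek, and CASAVA 1.8.2 is named in the submitters' processing notes. The gene annotation is not given in the sources used here. The authors' tables of ratios and p-values were not used. Groups came from the sample labels.

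RPKM was tested as log2(RPKM + 0.1), with names starting in Mir or Snor (1296) left out. limma 3.58.1 in R 4.3.3 was run with a variance trend on the 5 NK libraries, in place of the study's analysis of variance, which served as an alternative, and p-values were adjusted by Benjamini-Hochberg. The cell types were compared by the interaction in a joint fit of all 10 libraries. Scripts were tested on simulated data. Named genes were the 20 largest rises and 8 largest falls without overlap (Bcl2, Bcl2l1 and Gzmb left out), the genes higher at the threshold of the study, and up to 5 members of each list with the smallest p, and others are marked. A few genes that this rule names are not reported here. Members and lists were chosen with earlier results of these data known. Alternatives were other offsets, filters, scalings and variance models, a replicate block, the ILC1 run as a block (chosen after seeing the data), and leaving out each library. Promoter sequences are from RefSeq (GRCm38.p6), and 7549 of 9472 tested genes had one. RPKM was estimated and holds no whole reads, so depth enters only as the number of alignments, and exon length enters every value.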

Additional observations from a re-analysis of the deposited data

Results flagged for a closer look

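The response to tofacitinib differed between NK cells and ILC1 by the test of the difference itself (joint limma fit, adjusted p under 0.05) in 13 of 8981 genes, given here as the log2 change in NK cells minus that in ILC1. Globin genes made up 6 of them, with differences of -4.03 for Hbb-bt and for Hbb-b2, which carry the same values, -4.08 for Hba-a2, -3.75 for Hba-a1, -3.67 for Hbb-bs and -3.72 for Hbb-b1. Hbb-b1 was at 107, 34.9 and 27.8 against 17.6 and 27.1 RPKM in NK vehicle against tofacitinib and at 7.29, 14.6 and 0.532 against 119 and 5.25 in ILC1, so 1 library in each cell type, NK vehicle replicate 1 and ILC1 tofacitinib replicate 1, stood above the rest. Cd24a differed by -3.66, at 3.28, 4.01 and 4.2 against 3.23 and 4.44 RPKM in NK cells and 0.0152, 0.25 and 0.182 against 5.14 and 1.42 in ILC1, and Fcmr, a receptor of B cells, by -2.49, at 10.6, 18.6 and 12.1 against 15.3 and 20.8 and 0.037, 0.322 and 0.623 against 2.05 and 3.07. Hist1h4c differed by -2.39 at low and overlapping levels in NK cells. On the other side, Hspa1a differed by 2.45 and Hspa1b by 2.15, both higher in their change in NK cells. For Hspa1a the value rests on a vehicle library at practically 0 and on reads that cannot be split from those of Hspa1b, so its size is uncertain, and with the ILC1 run as a block neither difference was called (adjusted p 0.605 and 0.278). Tasp1, a protease gene, differed by 2.13, at 1.96, 1.96 and 2.16 against 1.84 and 2.64 RPKM in NK cells, where the groups overlapped, and 24.8, 16.7 and 30.8 against 4.29 and 7.65 in ILC1. Stmn1 differed by 2.12 and had changes of opposite sign in the 2 cell types. The part of other cells in the globin and Fcmr values was not tested. Without ILC1 vehicle replicate 2 the number of such genes was 3.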

How the results depend on the processing

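Counts of called genes depended on the processing. Of 170 higher and 286 lower, an offset of 1 gave 174 and 286, an offset of 0.01 gave 158 and 284, a minimum group mean of 3 gave 141 and 229, median scaling 192 and 308 and quantile normalization 248 and 369. No filter on low values gave 3 and 12 (16263 genes tested), no variance trend 111 and 220, and each gene's own variance 0 and 0, with 1591 genes at an unadjusted p under 0.05. Leaving out a library gave 9 to 356 higher and 28 to 434 lower. The replicate block by label number gave 664 and 1150, and that by the letter of the sample sheet 286 and 365, of which 128 and 248 were among the 170 and 286. Deviations of same-numbered libraries correlated at 0.02 and 0.14 over genes and with only 2 pairs the numbers are not taken as a pairing. The share of lower calls was 62.7% and 54.9% to 80% elsewhere. At the threshold of the study, 53 and 104 became 29 and 63 with an offset of 1, 180 and 217 without a filter and 23 and 42 with a minimum group mean of 3. With each gene's own variance 34 were higher, and leaving out a library gave 52 to 74 and 98 to 133. The 13 genes that differed from ILC1 became 2 after median scaling, 3 to 18 when a library was left out and 17 with the ILC1 run as a block, an alternative chosen after seeing the data. No called value changed sign. List medians that changed sign, all near 0 except that of histones, were those of the EGR and NR4A genes (0.11) and histones (-0.08) at a minimum group mean of 3 only, and those of 6 other lists. MAP kinase phosphatases went from -0.02 to 0.42 at that minimum, 0.04 after quantile normalization, 0.07 with the block by letter and up to 0.07 with a library left out. Chemokine receptors went from 0.01 to -0.16 at that minimum, -0.11 with the block by number and as low as -0.11 with a library left out, and the TNF superfamily from 0.01 to -0.07 in each of the 3 cases. NK receptors went from 0.02 to -0.01 with the block by number and lay between -0.13 and 0.14 with a library left out, autophagy genes went from 0.01 to -0.01 with that block and without vehicle replicate 3, and cholesterol genes from -0.03 to 0.06 without vehicle replicate 2 and 0.0024 without tofacitinib replicate 1. The cause of these shifts was not tested, except that a stricter or absent filter changes which genes are tested. RPKM carries no counts, so no counting interval can be given, and low genes are the least certain.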
